A study of Homo sapiens with 18 samples.

Results

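The genes described here are 9 transcription factors of the STAT and IRF families, STAT2, STAT3, STAT5B, STAT6, IRF1, IRF2, IRF3, IRF7 and IRF9. They were taken by gene symbol from the 61544 genes that both deposited count tables list. Poly(A) RNA was sequenced from BJ cells, an established human skin fibroblast line, with the level of PURPL lowered or raised; PURPL is a long noncoding RNA, and the series' title places it in the control of cellular senescence. In the knockdown table, PURPL transcription was repressed by CRISPR interference with the guides sgRNA-PURPL#1 and sgRNA-PURPL#2, and sgCtrl was the control guide. In the overexpression table, the PURPL-overexpressing cultures PURPL#1-OE and PURPL#2-OE were compared with their own control, Ctrl. Each of the 6 groups held 3 libraries, 18 in all. The labels give no treatment, passage or senescence stimulus, and do not say whether PURPL#1-OE and PURPL#2-OE are separate lines, clones or constructs.

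STAT proteins wait in the cytoplasm until a cytokine receptor and its JAK kinase phosphorylate them on tyrosine, whereupon they pair, enter the nucleus and bind DNA elements called GAS sites. Type I interferon makes STAT2 and IRF9 assemble into a complex called ISGF3, which binds a different element, the ISRE, and switches on the antiviral genes. The IRFs share a DNA-binding fold that also reads ISRE-like elements; IRF3 and IRF7 are switched on by sensors of viral nucleic acid and start interferon transcription, IRF1 activates genes of the interferon gamma response, and IRF2 competes with IRF1 for the same sites. In fibroblasts these factors carry both antiviral defence and the responses to cytokines such as interleukin-6 and interleukin-4.

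The promoters of IRF1 and STAT2 are shown because both genes fell with PURPL overexpression, and of these IRF1 alone also rose with PURPL knockdown. The sequences are from RefSeq (GRCh38.p14), run 5′ to 3′ on the gene's own strand and cover 250 bases before and 50 after the start; 6 of the 9 genes had an entry. Capitals mark a match to the GAS letters TTCNNNGAA. The IRF1 promoter lies at chr5:132490724-132491023 and that of STAT2 at chr12:56360058-56360357, both on the minus strand.
IRF1: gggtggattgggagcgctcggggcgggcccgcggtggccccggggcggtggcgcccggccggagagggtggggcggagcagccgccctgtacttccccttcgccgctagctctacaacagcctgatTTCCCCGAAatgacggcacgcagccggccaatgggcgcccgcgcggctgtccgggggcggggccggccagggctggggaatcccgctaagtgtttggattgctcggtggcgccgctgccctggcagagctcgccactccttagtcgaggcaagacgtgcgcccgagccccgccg
STAT2: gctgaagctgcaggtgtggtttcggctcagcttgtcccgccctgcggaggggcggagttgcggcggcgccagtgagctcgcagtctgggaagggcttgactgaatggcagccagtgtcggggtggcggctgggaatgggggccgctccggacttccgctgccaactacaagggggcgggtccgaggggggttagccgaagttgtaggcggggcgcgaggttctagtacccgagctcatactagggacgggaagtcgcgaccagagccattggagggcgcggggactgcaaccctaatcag

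The GAS match of IRF1 ends 115 bases before the start, and the IRF9 promoter holds another, 54 bases before its start. No GAS match was found in the windows of STAT2, STAT3, STAT5B and STAT6. The ISRE letters (GAAA, then NN, then GAAA) and the wider-spaced STAT6-type letters (TTC, then NNNN, then GAA) had no match in any of the 6 windows. Both strands were searched, and matches to different motifs were allowed to overlap. Among 35116 promoter entries of the same length, 7.66% held the GAS letters, 3.57% the ISRE letters and 6.44% the STAT6-type letters, and a match is a description, not a shown binding site.

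In the hg38 coordinates of the tables, STAT2 (ENSG00000170581.14) spans chr12:56341597-56360167, STAT6 (ENSG00000166888.12) chr12:57095408-57132139, STAT3 (ENSG00000168610.16) chr17:42313324-42388540 and STAT5B (ENSG00000173757.10) chr17:42199177-42276707. IRF1 (ENSG00000125347.15) spans chr5:132440440-132508719, IRF2 (ENSG00000168310.12) chr4:184385702-184474558, IRF3 (ENSG00000126456.16) chr19:49659569-49665875 and IRF7 (ENSG00000185507.21) chr11:612553-615983. All 8 are protein-coding genes on the minus strand. IRF9 (ENSG00000213928.9), the DNA-binding part of ISGF3, lies on the plus strand at chr14:24161265-24166565 and had 0 counts in all 18 libraries. It shares 5188 of its 5301 bases with a gene of the same strand, ENSG00000259529, which had 0 to 1 count per library. All 9429 genes that lie inside another gene of their strand also had 0 counts, so IRF9 could not be measured here and its 0 is not a level. IRF1 overlaps the opposite-strand gene ENSG00000283782 (7 to 31 counts in each knockdown library, 60 to 110 in each overexpression library), IRF3 overlaps BCL2L12 over 734 bases, and STAT6 overlaps LRP1 over 3657 bases. ENSG00000283782 covers all 68280 bases of IRF1, yet IRF1 had 399 to 1717 counts per library, unlike the genes inside another gene of their own strand. An overlap on the opposite strand therefore did not remove the reads of IRF1. The strand setting of the counting is not given in the sources used here, and the assignment of single reads in these overlaps was not tested.

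PURPL was checked first in every library. It measured 71.1 to 94.3 CPM (counts scaled to a common library size) in sgCtrl, 14.1 to 17.9 with sgRNA-PURPL#1 and 17.9 to 21.5 with sgRNA-PURPL#2, and 59.2 to 67.3 in Ctrl, 166 to 178 in PURPL#1-OE and 114 to 129 in PURPL#2-OE. Library depth was 11444513 to 12896040 counts in the knockdown experiment and 18858976 to 27985649 counts in the other. All 12 fibroblast markers examined were above 1 CPM in every library, and 7 of 9 immune cell markers were below 1 CPM in every library. Separate cultures are not stated for the replicates, and p-values therefore reflect only the spread among these libraries, which could be technical. In bulk RNA, fewer cells of a type and less RNA per cell cannot be told apart. Adjusted p-values are from edgeR's quasi-likelihood test with Benjamini-Hochberg adjustment over all genes tested and a threshold of 0.05. Values after ± are standard errors where they follow a log2 fold change, and the table's length column holds the whole gene span, so levels are compared within a gene and not between genes.

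IRF1 was the one member that changed in all 4 comparisons with a control, up with both guides and down in both overexpression cultures. In sgCtrl it measured 34.6, 38.8 and 36.0 CPM, with sgRNA-PURPL#1 57.6, 47.7 and 51.7 CPM, and with sgRNA-PURPL#2 51.2, 50.7 and 61.8 CPM. Every guide library lay above every sgCtrl library. The rise was 1.43-fold with sgRNA-PURPL#1 (log2 0.52 ± 0.0854, adjusted p = 2.57e-05) and 1.496-fold with sgRNA-PURPL#2 (log2 0.58 ± 0.0851, adjusted p = 5.05e-06). The guides, which share the sgCtrl libraries, differed from each other by 0.06 on the log2 scale (95% interval -0.11 to 0.23, adjusted p = 0.750).

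In the overexpression table IRF1 measured 66.9, 63.0 and 66.6 CPM in the Ctrl libraries, 30.5, 27.3 and 25.8 CPM in PURPL#1-OE, and 43.1, 46.2 and 34.3 CPM in PURPL#2-OE. The 3 groups did not overlap, with PURPL#1-OE lowest and PURPL#2-OE between it and Ctrl. The level was 2.35-fold lower in PURPL#1-OE (log2 -1.23 ± 0.0864, adjusted p = 7.97e-11) and 1.59-fold lower in PURPL#2-OE (log2 -0.67 ± 0.0847, adjusted p = 1.07e-06). The 2 cultures differed, PURPL#2-OE lying higher by 0.56 ± 0.0888 (adjusted p = 1.26e-04). PURPL itself was higher in PURPL#1-OE, the culture with the lower IRF1, but a relation between the levels of PURPL and IRF1 was not tested.

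IRF2, the repressor that competes with IRF1, fell in both overexpression cultures and passed the test with neither guide. It measured 50.1, 50.7 and 53.1 CPM in the Ctrl libraries, 39.8, 38.7 and 34.3 CPM in PURPL#1-OE, and 43.6, 40.1 and 38.8 CPM in PURPL#2-OE. Both cultures lay wholly below Ctrl and overlapped each other. The log2 fold changes were -0.45 ± 0.0671 (adjusted p = 2.70e-06) and -0.33 ± 0.0675 (adjusted p = 2.16e-04). Its knockdown levels were 26.5 to 29.05 CPM in sgCtrl, 28.8 to 31.8 CPM with sgRNA-PURPL#1 and 25.7 to 28.4 CPM with sgRNA-PURPL#2, and both guides overlapped the control. The log2 differences there were 0.15 (95% interval -0.02 to 0.32) and -0.04 (-0.21 to 0.13).

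IRF7, the amplifier of interferon transcription that interferon itself induces, had few reads in the overexpression table and almost none once PURPL was raised. Its raw counts were 16, 20 and 19 in Ctrl, 3, 2 and 1 in PURPL#1-OE, and 1, 2 and 2 in PURPL#2-OE. No library of either culture came near the Ctrl libraries. Summed over libraries, 55 counts in Ctrl stood against 6 and 5, which gives ratios to Ctrl of 0.102 (95% interval 0.0359 to 0.237) and 0.0991 (0.0310 to 0.246), intervals that cover counting error only. The fitted changes passed the test (adjusted p = 2.70e-05 and 4.63e-05), but IRF7 cleared the low-count filter only through its Ctrl libraries, so a gene kept in this way had to differ. In the knockdown table, where it was better covered, IRF7 measured 3.04 to 3.90 CPM in sgCtrl, 2.65 to 3.65 CPM with sgRNA-PURPL#1 and 3.06 to 4.15 CPM with sgRNA-PURPL#2. These groups overlapped, and the log2 differences of -0.13 (95% interval -0.57 to 0.31) and 0.16 (-0.26 to 0.59) did not pass.

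IRF3, the constitutive factor that nucleic acid sensors activate by phosphorylation, passed in no comparison. Its level was 19.9 to 23.8 CPM in sgCtrl, 19.9 to 24.3 CPM with sgRNA-PURPL#1 and 20.6 to 23.8 CPM with sgRNA-PURPL#2. In the overexpression table it measured 5.85, 6.25 and 5.47 CPM in the Ctrl libraries, 4.33, 5.31 and 4.23 CPM in PURPL#1-OE, and 5.86, 5.37 and 4.30 CPM in PURPL#2-OE. PURPL#1-OE lay just below Ctrl without overlap, at a log2 fold change of -0.35 (95% interval -0.65 to -0.05, adjusted p = 0.0544). That value lies next to the threshold, and it passed in 3 of 14 alternative fits (adjusted p from 0.0306 to 0.179 over all 14).

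STAT2, the partner that brings the activation domain to ISGF3, fell in both overexpression cultures. It measured 333, 348 and 306 CPM in the Ctrl libraries, 193, 189 and 188 CPM in PURPL#1-OE, and 205, 206 and 189 CPM in PURPL#2-OE. A wide gap parted the Ctrl libraries from all 6 others. The level was 1.73-fold lower in PURPL#1-OE (log2 -0.79 ± 0.0539, adjusted p = 2.87e-13) and 1.65-fold lower in PURPL#2-OE (log2 -0.72 ± 0.0539, adjusted p = 3.21e-12). The cultures differed by 0.07 (95% interval -0.04 to 0.18, adjusted p = 0.443).

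With the guides, STAT2 measured 209, 229.6 and 237 CPM in sgCtrl, 208, 207 and 210.1 CPM with sgRNA-PURPL#1, and 238, 239 and 243 CPM with sgRNA-PURPL#2. The libraries of sgRNA-PURPL#1 sat at the level of the lowest sgCtrl library, and those of sgRNA-PURPL#2 just above the highest. Against sgCtrl the log2 differences were -0.11 ± 0.0588 (adjusted p = 0.181) and 0.09 ± 0.0586 (adjusted p = 0.274), and neither passed. The guides did differ from each other, sgRNA-PURPL#2 lying higher by 0.20 ± 0.0587 (adjusted p = 0.0237). This call was lost when any 1 of the 6 guide libraries was left out (adjusted p from 0.0557 to 0.0970), while the difference itself was 0.19 to 0.22. Without sgCtrl replicate 1, the lowest of its group, the value for sgRNA-PURPL#1 became -0.17 and passed (adjusted p = 0.0165, against a range of 0.0165 to 0.435 over 15 alternatives).

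STAT5B, which carries growth hormone and prolactin signals, moved opposite to IRF1 where it passed. It measured 31.4, 30.5 and 32.5 CPM in the Ctrl libraries, 39.4, 37.6 and 41.4 CPM in PURPL#1-OE, and 40.5, 41.5 and 41.1 CPM in PURPL#2-OE. Both cultures lay wholly above Ctrl. The rises were 1.26-fold (log2 0.33 ± 0.0655, adjusted p = 1.54e-04) and 1.30-fold (log2 0.38 ± 0.0660, adjusted p = 2.30e-05). In the knockdown table the levels were 35.2, 33.5 and 34.5 CPM in sgCtrl, 29.02, 27.7 and 26.3 CPM with sgRNA-PURPL#1, and 28.6, 33.4 and 29.5 CPM with sgRNA-PURPL#2. All guide libraries lay below all sgCtrl libraries, one library of sgRNA-PURPL#2 only just. STAT5B fell by 0.31 on the log2 scale with sgRNA-PURPL#1 (SE 0.0822, adjusted p = 0.00504), and the value for sgRNA-PURPL#2, -0.17 ± 0.0814, did not pass (adjusted p = 0.121).

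STAT3, the main mediator of interleukin-6 family signals, rose slightly with 1 of the guides and in 1 of the overexpression cultures. It measured 167, 185 and 188 CPM in sgCtrl, 200.2, 205 and 210.0 CPM with sgRNA-PURPL#1, and 195, 191 and 196 CPM with sgRNA-PURPL#2. Both guides lay above sgCtrl without overlap, yet the gap was narrower than the spread within sgCtrl. The change was 1.14-fold with sgRNA-PURPL#1 (log2 0.19 ± 0.0596, adjusted p = 0.0190), and 0.11 ± 0.0597 on the log2 scale with sgRNA-PURPL#2 did not pass (adjusted p = 0.208). The call for sgRNA-PURPL#1 was lost without sgCtrl replicate 1 (0.13, adjusted p = 0.0779), without sgRNA-PURPL#1 replicate 2 (0.18, adjusted p = 0.0704) and without its replicate 3 (0.17, adjusted p = 0.0926); adjusted p was 0.00613 to 0.0926 over 15 alternatives.

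In the overexpression table STAT3 measured 218, 224 and 233 CPM in the Ctrl libraries, 231, 251 and 254 CPM in PURPL#1-OE, and 255, 289 and 246 CPM in PURPL#2-OE. PURPL#1-OE overlapped Ctrl by 1 library and PURPL#2-OE did not. The rise passed in PURPL#2-OE, at 1.17-fold (log2 0.23 ± 0.0574, adjusted p = 0.00210), and the value for PURPL#1-OE, 0.13 ± 0.0573, did not (adjusted p = 0.0778). The 2 cultures themselves differed by 0.10 (95% interval -0.02 to 0.22, adjusted p = 0.295).

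STAT6, the mediator of interleukin-4 and interleukin-13, fell in PURPL#1-OE and did not pass in PURPL#2-OE. It measured 79.2, 76.6 and 76.9 CPM in the Ctrl libraries, 65.6, 67.0 and 68.4 CPM in PURPL#1-OE, and 78.5, 77.7 and 74.0 CPM in PURPL#2-OE. PURPL#1-OE stood apart below both other groups, which overlapped. The log2 fold change was -0.21 ± 0.0539 in PURPL#1-OE (adjusted p = 0.00216) and -0.02 ± 0.0539 in PURPL#2-OE (adjusted p = 0.849), and the direct difference of 0.20 ± 0.0541 passed (adjusted p = 0.0147). That difference missed the threshold without 1 of 3 libraries, 2 of PURPL#1-OE and 1 of PURPL#2-OE (adjusted p from 0.0551 to 0.0759), with values of 0.18 to 0.20. With the guides STAT6 ranged from 89.7 to 94.1 CPM, overlapping the 92.3 to 96.4 CPM of sgCtrl.

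**Figure D1:**
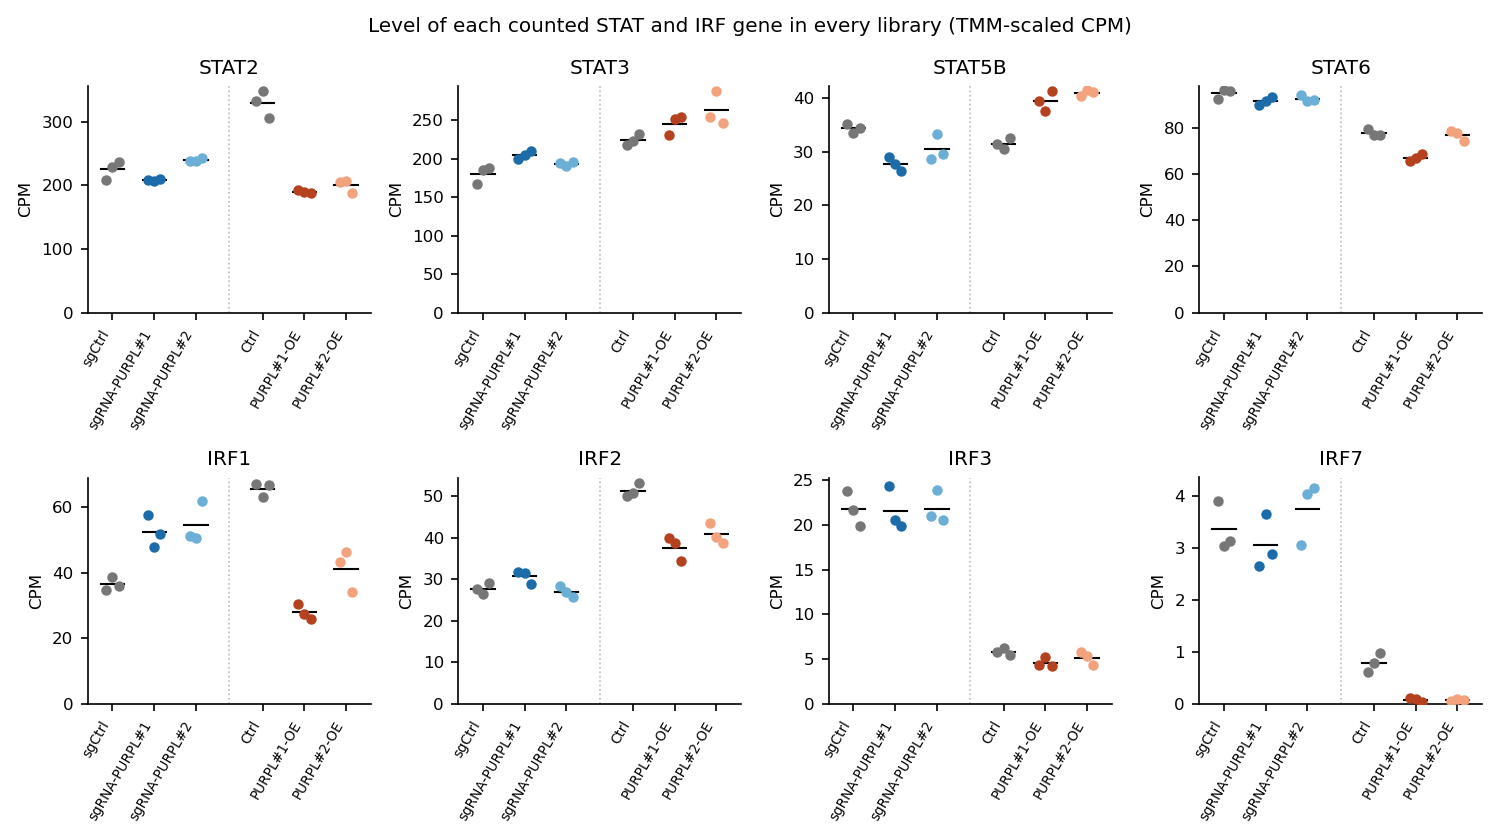
TMM-scaled CPM (vertical axes from 0, each with its own scale) of 8 STAT and IRF genes in each library, grouped as labelled; points are libraries and black lines group means, and a dotted line parts the tables, which were normalized separately. IRF1 lies above sgCtrl with both guides and below Ctrl in both overexpression cultures, and IRF7 is near 0 in both overexpression cultures.

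Counted over the 8 members tested, few passed in the knockdown table and most in the overexpression table. With sgRNA-PURPL#1, 2 rose (IRF1 and STAT3) and 1 fell (STAT5B), where 11.6% of all 13923 genes tested rose and 12.9% fell. With sgRNA-PURPL#2, 1 rose (IRF1) and 0 fell, against 11.9% and 12.4% of all genes. Between the guides 1 member (STAT2) differed, against 9.25% of all genes. In PURPL#1-OE, 1 rose (STAT5B) and 5 fell (STAT2, STAT6, IRF1, IRF2 and IRF7), where 19.5% of all 15267 genes tested rose and 20.1% fell. In PURPL#2-OE, 2 rose (STAT3 and STAT5B) and 4 fell (STAT2, IRF1, IRF2 and IRF7), against 18.9% and 19.6% of all genes. Between the 2 cultures 2 members differed (IRF1 and STAT6), against 12.4% of all genes. IRF7 is among these counts although the filter kept it only through Ctrl, and the cultures share the Ctrl libraries. With 8 genes tested, 1 call already makes a share about as large as that of all genes in the knockdown table, so those counts are not a result about the members. In the overexpression table the 5 and 4 falls were larger shares than those of all genes, but they include IRF7, which had to differ. The members were also chosen with earlier results of these data known, so these shares are not independent evidence of a direction.

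**Figure D2:**
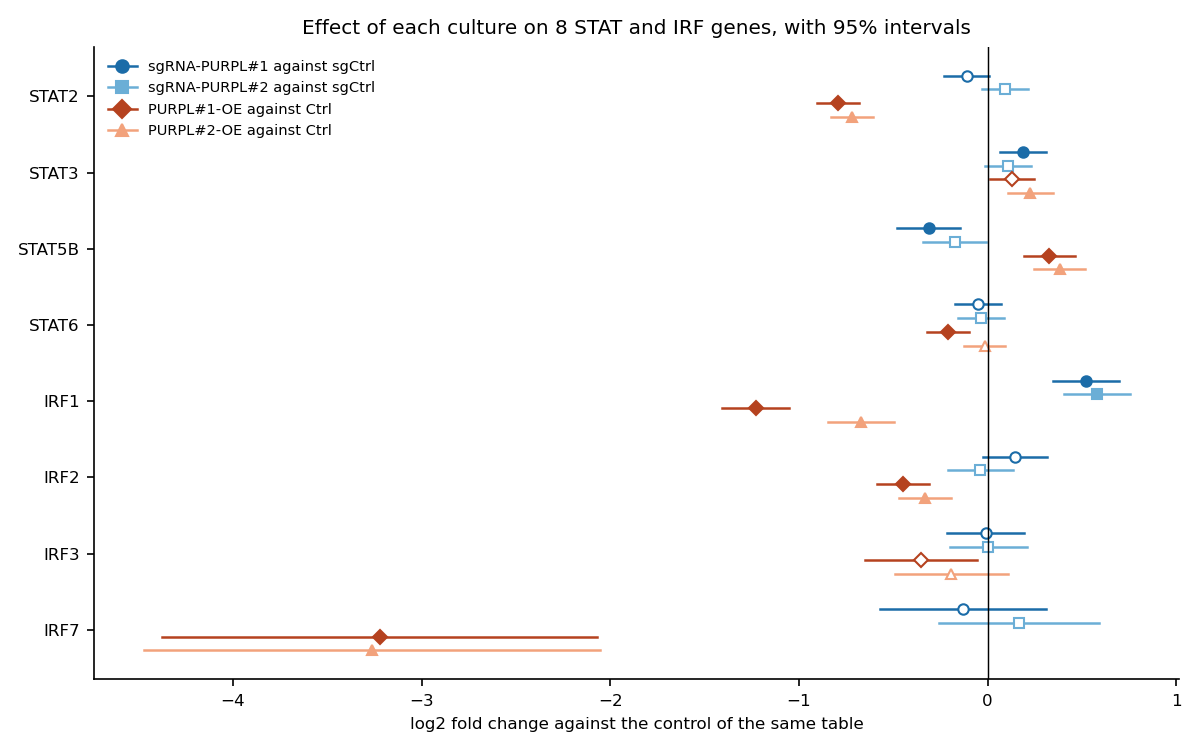
Log2 fold change (horizontal axis) of 8 STAT and IRF genes in the 4 comparisons with a control; bars are 95% intervals, and filled symbols passed an adjusted p of 0.05. IRF1 lies on opposite sides of 0 in the 2 experiments, and the widest intervals are those of IRF7, which rest on 1 to 3 counts in each overexpression library.

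Whether a gene responded differently to lowering and raising PURPL was tested in a joint fit of all 18 libraries, as the mean effect of both guides minus the mean effect of both overexpression cultures. Of the 8 members 5 differed, against 33.6% of 15166 genes. The difference was 1.51 ± 0.116 on the log2 scale for IRF1 (adjusted p = 7.43e-12), 0.75 ± 0.0706 for STAT2 (adjusted p = 6.70e-12), 0.45 ± 0.0915 for IRF2 (adjusted p = 1.21e-04) and 3.23 ± 0.447 for IRF7 (adjusted p = 1.20e-07), the last with the reservation on its counts. It was -0.59 ± 0.0886 for STAT5B (adjusted p = 5.91e-07). For STAT2, IRF2 and IRF7 this difference comes with overexpression changes that passed and knockdown values that did not. STAT3, STAT6 and IRF3 did not pass, with differences of -0.02 (95% interval -0.17 to 0.12), 0.08 (-0.06 to 0.21) and 0.28 (-0.03 to 0.58).

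Among other STAT genes, STAT4 fell in both overexpression cultures (log2 -0.35 and -0.39, adjusted p = 0.0392 and 0.0249), and STAT5A, the close relative of STAT5B, rose in PURPL#2-OE (log2 0.39, adjusted p = 0.0209). In the knockdown table STAT4 averaged 4.16 CPM in sgCtrl, 5.50 CPM with sgRNA-PURPL#1 and 5.93 CPM with sgRNA-PURPL#2. That rise passed with sgRNA-PURPL#2 and not with sgRNA-PURPL#1. IRF4, IRF5 and IRF8, which act mainly in blood cells, had at most 15 counts in any library and were not tested.

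The genes that ISGF3 binds fell in both overexpression cultures, and a part of them rose with the guides. Of 34 tested targets, 34 fell in each overexpression culture, with median log2 fold changes of -3.14 and -3.35 where the medians of all genes were 0.01 and 0.01 and 20.1% and 19.6% of all genes fell. With sgRNA-PURPL#1 17 rose, with sgRNA-PURPL#2 31 rose, and with either guide 0 fell, with medians of 0.18 and 0.39, where 11.6% and 11.9% of all genes rose. Of the 34, 2 (IFI27 and OASL) cleared the filter of the overexpression table through Ctrl alone, so they had to differ there. The ISGF3 list and the lists below were chosen with earlier results of these data known, so their counts are not independent evidence of a direction. RSAD2, the antiviral enzyme viperin, measured 309 to 325 CPM in the Ctrl libraries, 2.25 to 2.97 CPM in PURPL#1-OE and 1.28 to 2.21 CPM in PURPL#2-OE. The same gene ran from 23.5 to 26.1 CPM in sgCtrl to 31.7 to 41.4 CPM with sgRNA-PURPL#1 and 40.5 to 45.7 CPM with sgRNA-PURPL#2, and both rises passed (log2 0.51 and 0.81, adjusted p = 9.50e-05 and 6.14e-08). IFI27, a mitochondrial interferon-induced protein, had 905 counts in Ctrl against 33 and 13 in the cultures, and rose by log2 1.10 and 1.35 with the guides. OASL, a relative of the oligoadenylate synthetases, had 941 counts in Ctrl against 6 and 11 in the cultures.

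The sites of the ISRE letters in 2 of these promoters are shown for comparison with the windows of the members, in which none was found. Capitals mark each match to the ISRE letters on either strand, in RefSeq sequence (GRCh38.p14) on the plus strand, at chr2:6877607-6877666 for RSAD2 and chr14:94110603-94110662 for IFI27. The RSAD2 match ends 135 bases before the start.
RSAD2: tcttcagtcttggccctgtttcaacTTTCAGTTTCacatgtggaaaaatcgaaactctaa
IFI27: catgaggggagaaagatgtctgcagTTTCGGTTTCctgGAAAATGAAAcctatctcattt

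Of the 35 listed ISGF3 targets 29 had a promoter entry, and 19 of these (65.5%) held the ISRE letters. Of the 27 listed IRF1 and interferon gamma targets 20 had an entry and 13 (65%) held them, where 3.57% of all entries do. The GAS letters were in 7 and 3 of these promoters. One entry was taken for each listed gene, while the share of all entries counts every start of a gene.

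Genes downstream of IRF1 and interferon gamma, such as guanylate-binding proteins, antigen-presentation genes and chemokines, fell in the overexpression cultures and mostly did not pass in the knockdown table. Of 25 tested, 24 fell in PURPL#1-OE and 23 in PURPL#2-OE, with medians of -1.14 and -1.20, where 20.1% and 19.6% of all genes fell. Of the 25, 4 (CXCL10, CXCL11, IDO1 and GBP5) cleared the filter through Ctrl alone, so they had to differ. CXCL11, a chemokine that draws T cells, had 207 counts in Ctrl, 0 in PURPL#1-OE and 2 in PURPL#2-OE. The 95% counting interval of its ratio to Ctrl reached from 0 to 0.0168 in PURPL#1-OE and from 0.00127 to 0.0385 in PURPL#2-OE. CXCL10 had 142 counts in Ctrl against 1 and 0, and IDO1, a tryptophan-degrading enzyme, 188 against 4 and 3. In the knockdown table, where IRF1 itself rose with both guides, 5 of 21 tested targets rose and 1 fell with each guide, with medians of 0.06 and 0.08. Those shares are 5 of 21 against 11.6% and 11.9% of all genes that rose.

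Upstream of IRF3 and IRF7 stand the sensors of nucleic acid and their adaptors and kinases. Of 17 tested, 9 fell in each overexpression culture, 1 rose in PURPL#1-OE and 0 rose in PURPL#2-OE, where 20.1% and 19.6% of all genes fell and 19.5% and 18.9% rose. With the guides 3 and 4 rose and 1 fell with each, against 11.6% and 11.9% of all genes that rose and 12.9% and 12.4% that fell. IFIH1, the RNA sensor MDA5, averaged 931 CPM in Ctrl and 70.6 and 88.6 CPM in the cultures, and 152, 181 and 210.5 CPM in sgCtrl and with the 2 guides, where it passed with both (log2 0.25 and 0.47). TLR3, an endosomal sensor of RNA, averaged 30.7 CPM in Ctrl, against 5.84 and 6.44 CPM in the cultures. DHX58, the RNA-binding regulator LGP2, fell in both cultures (log2 -1.77 and -1.54) and passed with sgRNA-PURPL#2 alone of the guides (0.31, adjusted p = 0.00759). The interferon genes themselves were at the limit of detection. Of 8 listed ligands 6 had 0 counts in all 18 libraries, and IFNA1 had 2 counts in Ctrl and 0 elsewhere. IFNB1 had 17 counts in Ctrl (3 to 10 per library), 0 in PURPL#1-OE and 1 in PURPL#2-OE. It had 3, 2 and 6 counts in sgCtrl and with the 2 guides, each sum from a single library. A count of 0 in PURPL#1-OE allows up to 0.0397 CPM. No interferon gene had enough counts to be tested.

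The immune cell markers, whose cells also make these factors, summed to 0.413 to 1.29 CPM in Ctrl, 0.237 to 0.966 CPM in PURPL#1-OE and 0.451 to 0.746 CPM in PURPL#2-OE. These 3 ranges overlapped, and those of the keratinocyte and endothelial markers overlapped as well. Other marker sums parted from Ctrl in both overexpression cultures. The fibroblast markers summed to 28097 to 28468 CPM in Ctrl, 31424 to 32655 CPM in PURPL#1-OE and 34277 to 35571 CPM in PURPL#2-OE. The smooth muscle markers summed to 114 to 125 CPM in Ctrl, 172 to 191 CPM in PURPL#1-OE and 142 to 146 CPM in PURPL#2-OE, and with the guides they were lower, at 134 to 149 CPM in sgCtrl, 81.0 to 89.7 CPM with sgRNA-PURPL#1 and 107 to 109 CPM with sgRNA-PURPL#2. Of the 5, ACTA2, CNN1 and SMTN were above 1 CPM in every library, while DES stayed below 1 CPM and MYH11 reached at most 1.38 CPM. The melanocyte markers summed to 52.0 to 55.6 CPM in Ctrl, 70.6 to 77.8 CPM in PURPL#1-OE and 72.8 to 74.7 CPM in PURPL#2-OE. With the guides that sum was 50.7 to 60.9 CPM in sgCtrl, 70.7 to 77.2 CPM with sgRNA-PURPL#1 and 51.8 to 58.4 CPM with sgRNA-PURPL#2. It was nearly all MITF (50.6 to 77.3 CPM), and MLANA, TYR and DCT stayed below 1 CPM in every library. The part of these marker differences in the changes of the STAT and IRF genes was not tested.

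**Figure D3:**
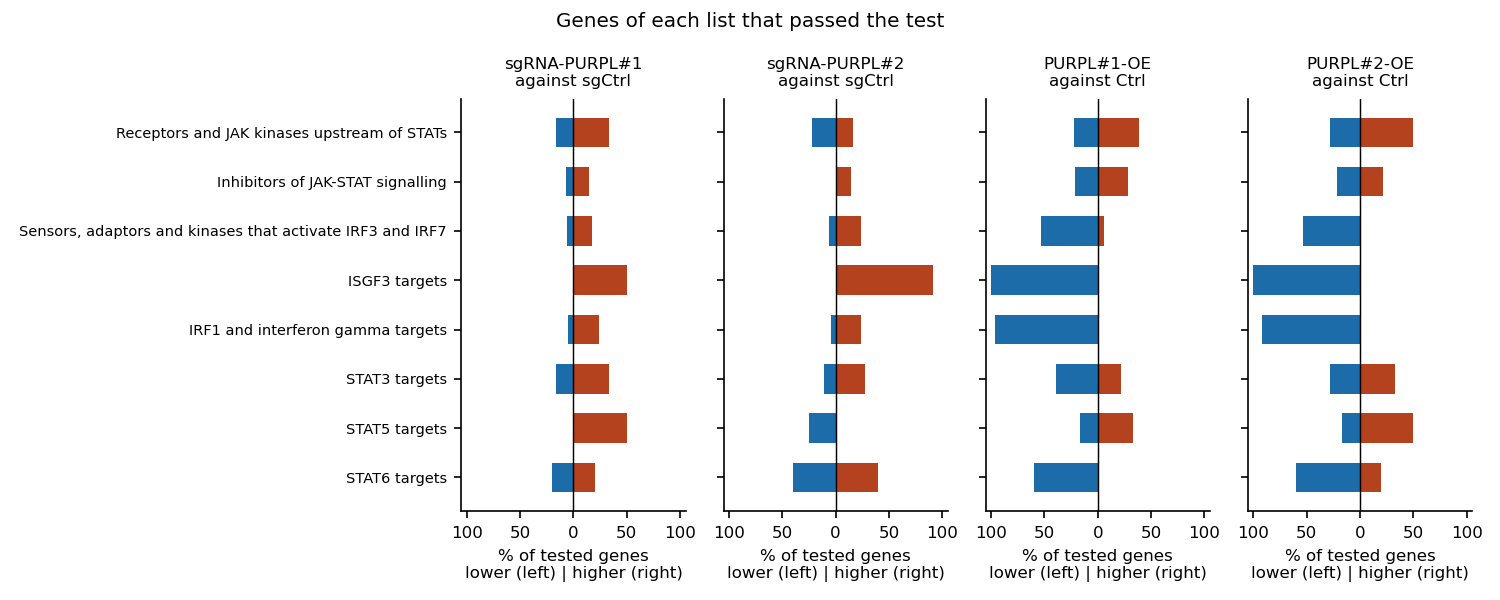
Percentage of the tested genes of each list (horizontal axes) that passed the test as lower (blue, to the left) or higher (red, to the right) in 4 comparisons with a control; lists with more than 3 tested genes are shown. All 34 tested ISGF3 targets fell in both overexpression cultures, and 17 and 31 rose with the guides.

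Receptors and JAK kinases moved in both directions. Of 18 tested, 6 rose and 3 fell with sgRNA-PURPL#1, 3 and 4 with sgRNA-PURPL#2, 7 and 4 in PURPL#1-OE, and 9 and 5 in PURPL#2-OE. Over all genes the rising and falling shares were 11.6% and 12.9%, 11.9% and 12.4%, 19.5% and 20.1%, and 18.9% and 19.6% in the same order, and several of the counts lie near them. PRLR, the prolactin receptor that signals through STAT5, fell in all 4 comparisons (log2 -1.54, -1.60, -0.96 and -1.45). IL4R, the interleukin-4 receptor chain upstream of STAT6, changed by log2 -0.30 and -0.44 with the guides, the second passing (adjusted p = 0.148 and 0.0333), and fell by 0.93 and 0.77 in the cultures. IL6R, which binds interleukin-6 upstream of STAT3, rose with sgRNA-PURPL#1 (log2 0.53) and in both cultures (0.61 and 0.73), and the value for sgRNA-PURPL#2 was 0.15 (adjusted p = 0.405).

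Of 14 inhibitors of JAK-STAT signalling, 2 rose and 1 fell with sgRNA-PURPL#1, 2 rose and 0 fell with sgRNA-PURPL#2, 4 rose and 3 fell in PURPL#1-OE, and 3 rose and 3 fell in PURPL#2-OE. Beside the 11.6% to 11.9% of all genes that rose with the guides and the 18.9% to 20.1% that rose or fell in the cultures, these counts are no result about the inhibitors. CISH, which is also among the STAT5 and STAT6 targets, would not have cleared the filter of the overexpression table without its Ctrl libraries. SOCS3, a target of STAT3 that blocks JAK kinases, rose in all 4 comparisons, by log2 0.34 and 0.67 with the guides and 0.50 and 0.80 in the cultures. USP18, which silences the interferon receptor and is induced by interferon, averaged 48.5 CPM in Ctrl and 3.40 and 4.56 CPM in the cultures. SOCS2, another listed inhibitor and also a STAT5 target, rose with sgRNA-PURPL#1 (log2 0.22, adjusted p = 0.0215) and in both cultures (0.54 and 0.50), and was at -0.04 with sgRNA-PURPL#2 (adjusted p = 0.723).

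Listed targets of the other STATs followed no single direction. Of 18 STAT3 targets, 6 rose and 3 fell with sgRNA-PURPL#1, 5 and 2 with sgRNA-PURPL#2, 4 and 7 in PURPL#1-OE, and 6 and 5 in PURPL#2-OE. For these and the STAT5 and STAT6 targets, the shares of all genes were 11.6% higher and 12.9% lower with sgRNA-PURPL#1, 11.9% and 12.4% with sgRNA-PURPL#2, 19.5% and 20.1% in PURPL#1-OE, and 18.9% and 19.6% in PURPL#2-OE, and with so few genes a list many counts lie near them. LIF, a cytokine of the interleukin-6 family, averaged 3.42 CPM in Ctrl and 0.529 and 0.606 CPM in the cultures. FOS, an immediate early transcription factor, went the other way and rose in both cultures (log2 0.80 and 1.31, adjusted p = 0.00131 and 1.62e-06). With the guides FOS had 17 counts in sgCtrl, 30 with sgRNA-PURPL#1 and 45 with sgRNA-PURPL#2, and the filter kept it there through sgRNA-PURPL#2 alone. Of 6 STAT5 targets tested in the overexpression table, where STAT5B rose, 2 rose and 1 fell in PURPL#1-OE and 3 rose and 1 fell in PURPL#2-OE, with CISH, which needed its Ctrl libraries to clear the filter, among the 6. IGF1, insulin-like growth factor 1, went from 49 counts in Ctrl to 271 and 158, and BCL2L1, which guards against apoptosis, fell (log2 -0.26 and -0.34). Of 4 tested in the knockdown table, where STAT5B fell with sgRNA-PURPL#1, 2 rose and 0 fell with that guide, and 0 rose and 1 fell with the other. Of 5 STAT6 targets, 1 rose and 1 fell with sgRNA-PURPL#1, 2 and 2 with sgRNA-PURPL#2, 0 and 3 in PURPL#1-OE, and 1 and 3 in PURPL#2-OE. Among the 5 of the overexpression table was again CISH. POSTN, the matrix protein periostin, changed in all 4 comparisons. It had 9 counts in sgCtrl (1 to 6 per library) against 66 and 68 with the guides (log2 2.83 and 2.88, adjusted p = 2.62e-05 and 2.08e-05). The filter on low counts kept POSTN in the knockdown table only through the guide libraries, so it had to differ there. In the overexpression table POSTN measured 219.8 to 256 CPM in Ctrl against 98.4 to 110.3 and 65.3 to 69.4 CPM in the cultures (log2 -1.20 and -1.84). CCL2, a monocyte-attracting chemokine of that list, averaged 193 CPM in Ctrl and 69.3 and 108 CPM in the cultures.

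Of the cofactors IRF2BP1, IRF2BP2 and IRF2BPL, which join IRF2 in repression, 0 fell in either overexpression culture, where 20.1% and 19.6% of all genes fell. IRF2BP1 rose in PURPL#2-OE (log2 1.00, adjusted p = 0.0121), where 18.9% of all genes rose. Its counts were low, at 13 to 22 per library in Ctrl and 31 to 38 in PURPL#2-OE. With sgRNA-PURPL#2, IRF2BP2 (log2 0.20, adjusted p = 0.0327) and IRF2BPL (0.29, adjusted p = 0.00540) rose and IRF2BP1 fell (-0.42, adjusted p = 0.0299). Over all genes 11.9% rose and 12.4% fell with that guide. None of the 3 passed with sgRNA-PURPL#1. With only 3 genes, these counts are no result about the cofactors.

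Levels in the 2 controls are set side by side after joint scaling, without a test, because the experiment and the group cannot be told apart. STAT2 averaged 222 CPM in sgCtrl and 333 CPM in Ctrl, IRF1 36.0 and 66.3 CPM, and IRF2 27.4 and 51.9 CPM. IRF3 ran the other way, at 21.5 CPM in sgCtrl and 5.93 CPM in Ctrl, as did IRF7 at 3.31 and 0.805 CPM. STAT3 averaged 178 and 227 CPM, STAT5B 34.0 and 31.9 CPM, and STAT6 93.6 and 78.5 CPM. The gap between the tables moved with the GC content of the transcript. Over all genes the median of Ctrl minus sgCtrl was 0.43 on the log2 scale for transcripts up to 40% GC, -0.67 for 55 to 60% and -1.80 above 65%. The values were -1.84 for IRF3 at 59.0% GC and -1.91 for IRF7 at 66.8% GC, 0.88 for IRF1 at 52.6% and 0.92 for IRF2 at 45.4%. The part of GC content in these gaps was not tested. Within the tables the class medians of the 4 comparisons with a control ran from -0.09 to 0.06.

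**Figure D4:**
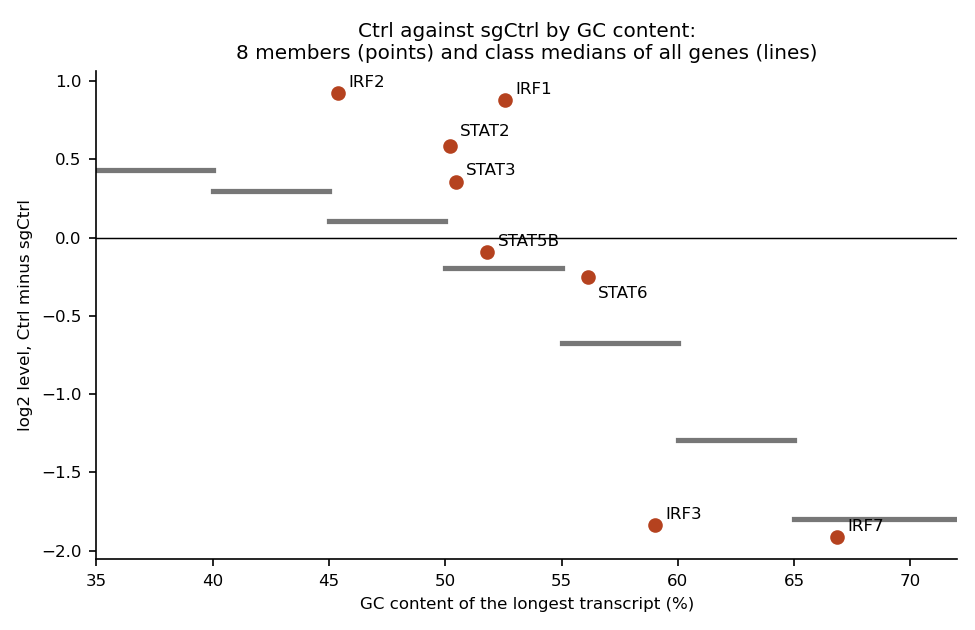
Log2 level in Ctrl minus sgCtrl (vertical axis) against the GC content of the longest transcript in percent (horizontal axis); points are 8 STAT and IRF genes, and lines are medians of all genes in 7 classes of GC content, whose outer classes end at the edges of the plot. IRF1, IRF2, STAT2, STAT3, STAT5B and STAT6 lie above the line of their class. IRF3 and IRF7 are the lowest points, IRF3 below the line of its class and IRF7 close to its own.

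For each member the 2 genes most like it were found by Pearson correlation of log2 CPM over the 18 libraries, each table centred on its own mean, among 13638 genes. The libraries share their tables and controls, so these values are descriptions, and the choice by likeness fixes the directions of the genes chosen. STAT2 was most like APOL2 (0.978) and UBA7 (0.976), IRF7 most like ISG15 (0.970) and IFI44 (0.968), and IRF1 most like GBP4 (0.955) and C3 (0.953). The log2 fold changes of C3, the central complement component, were 1.62 and 1.21 with the guides and -3.41 and -2.22 in the cultures. Those of GBP4 were 0.81 and 0.99 with the guides and -3.18 and -1.69 in the cultures. IRF2 was most like LUCAT1 (0.928) and PRRX1 (0.921), STAT5B most like EXPH5 (0.924) and COL27A1 (0.910), and STAT6 most like ETS2 (0.925) and PAQR5 (0.921). The log2 fold changes of EXPH5 were -1.35 and -1.16 with the guides and 1.16 and 1.23 in the cultures. The values were lower for STAT3, whose nearest were DCAF6 (0.898) and ADGRA2 (0.892), and lowest for IRF3, with MYDGF (0.818) and EVA1C (0.783).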

How the data were processed

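The authors deposited 2 tables of raw read counts per gene, whole numbers with no normalization, and all 18 value columns were used. The submitters' processing notes name HISAT2 2.1.0 and featureCounts 2.0.1 of Subread among other tools, with hg38 and GRCh38.p13 as builds; which annotation and counting options were used is not given in the sources used here. Per the labels' protocols, mRNA was fragmented, reverse-transcribed with random hexamers and amplified by 18 cycles of PCR. No molecular identifiers are described, and count intervals hold counting error alone. Genomic DNA is the molecule in the labels, against their RNA protocol, which was followed.

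Groups were taken from sample titles; 5 columns, 3 of PURPL#1-OE and 2 of PURPL#2-OE, carry no replicate number and entered as unnumbered libraries. Each table was fitted with edgeR 4.0.16 in R 4.3.3 (filterByExpr with a minimum count of 10, TMM, robust quasi-likelihood test, Benjamini-Hochberg adjustment over all genes tested, 9 libraries and 6 residual degrees of freedom), and all 18 libraries in 1 joint fit. CPM are TMM-scaled, and the fit was tested on simulated data. GC content is that of the longest GENCODE transcript and was found for 98.3% of genes; likeness and GC values used log2 CPM with a prior count of 2. Alternatives were DESeq2 1.42.0, 2 other scalings, no filter, only the groups compared, the replicate block and leaving out each library. Named were all members, PURPL, other STAT and IRF genes, up to 3 genes of each list with the largest mean absolute fold change among those passing in at least 1 comparison with a control, and the 2 genes most like each member. Some genes of these families are not reported here. IRF9 was left out of tests, having 0 counts. Members and lists were chosen with earlier results of these data known, so they are not independent evidence of a direction.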

Additional observations from a re-analysis of the deposited data

Results flagged for a closer look

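Between the guides, the effects on STAT2 differed by 0.203 on the log2 scale (sgRNA-PURPL#2 higher, adjusted p = 0.0237), with no overlap of their libraries. That call was lost when any single guide library was left out (adjusted p from 0.0557 to 0.0970). Between the overexpression cultures, PURPL#2-OE lay above PURPL#1-OE by 0.558 for IRF1 (adjusted p = 1.26e-04) and by 0.195 for STAT6 (adjusted p = 0.0147), again without overlap. The call for STAT6 was lost in some fits without a library (adjusted p from 0.0551 to 0.0759). The mean knockdown effect exceeded the mean overexpression effect by 1.51 for IRF1 (adjusted p = 7.43e-12), 0.752 for STAT2 (adjusted p = 6.70e-12), 0.448 for IRF2 (adjusted p = 1.21e-04) and 3.23 for IRF7 (adjusted p = 1.20e-07), and fell short of it for STAT5B, at -0.594 (adjusted p = 5.91e-07). The value for IRF7 rests on 1 to 3 counts in each library of the overexpression cultures. In every case the test was of the difference itself, in edgeR's quasi-likelihood fit.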

How the results depend on the processing

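Of 871 single-gene values under an alternative, 851 kept their side of the threshold, 12 lost the call and 8 gained it. Reversals, a change of sign where the main fit or the alternative passed, numbered 0. Some values that passed in neither fit did change sign, such as IRF3 with sgRNA-PURPL#1 (-0.11 to 0.05). Of 218 counts, 209 stayed within 1.5 times. The number of members that differed between the guides was 0 without any 1 of the 6 guide libraries and 1 in the main fit, and between the overexpression cultures it ranged from 1 to 2 when a library was left out. Calls gained were STAT3 in PURPL#1-OE with upper-quartile scaling (0.15, adjusted p = 0.0388), with only the groups compared (0.13, adjusted p = 0.0379) and in 2 fits without a library (adjusted p = 0.0408 and 0.0392; 0.0379 to 0.256 over all 14), IRF3 in PURPL#1-OE in 3 fits, and STAT2 with sgRNA-PURPL#1 in 1 fit. Members called with sgRNA-PURPL#1 numbered 2 to 3, with sgRNA-PURPL#2 1, in PURPL#1-OE 6 to 8, in PURPL#2-OE 6 and in the joint fit 5, over all alternatives run. With the replicate number as a replicate block, 3, 1 and 1 members were called in the knockdown comparisons, as without it, and 3250, 3217 and 1204 genes in place of 3417, 3393 and 1288. Deviations of same-numbered libraries correlated at -0.089 to 0.039, and those of differently numbered libraries at -0.083 to 0.114. Same-numbered libraries were thus no more alike than others, which cannot show whether they shared a culture, day or batch. No paired analysis was possible for the overexpression table and the joint fit because 5 columns carry no number. IRF7 in the overexpression table rests on 1 to 20 counts per library, IRF9 was not measured, and only 3 libraries a group limit what small changes, such as those of STAT3, STAT6 and IRF3, can show.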
